A study of Homo sapiens with 6 samples.

Results

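The replication-dependent histone genes were taken as every gene whose RefSeq symbol or older symbol starts with HIST1H, HIST2H, HIST3H or HIST4H, a choice made by name and not by binding. The rule gave 90 genes of 59792 in RefSeq, 71 protein-coding and 19 pseudogenes. They were looked up in lists of chromatin immunoprecipitation sequencing (ChIP-seq) peaks from CHP-134, an established human neuroblastoma cell line with amplified MYCN. There were 3 samples pulled down with an N-Myc antibody after formaldehyde cross-linking, and 3 pulled down with a JMJD6 antibody after double cross-linking with DSG and then formaldehyde. The series title calls the cells NMYC overexpressing, the labels name no drug or added gene, and all 6 came from a single cell line. MYCN encodes the transcription factor N-Myc, and JMJD6 is a jumonji-domain protein. The antibody and the cross-linking changed together, so differences between the N-Myc and JMJD6 lists cannot be told apart from differences in cross-linking.

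The lists hold positions only. A common peak is a region called in all 3 replicates, and a listed promoter is a window of 1 kb on each side of a start site. Typical enhancers and super-enhancers were built from peaks of H3K27ac, a mark of active chromatin, and each was assigned to its nearest genes. Per the study's methods, H3K27ac peaks within 1 kb of start sites were left out and the remaining ones were joined across gaps. A region can therefore span start sites at which no H3K27ac peak was counted. With no height, score or number of reads in the lists, sequencing depth at a peak is unknown, no spread between replicates could be computed and no test over samples was possible. Shares are given with exact (Clopper-Pearson) 95% intervals, which cover counting error over genes only, and neighbouring histone genes often share a peak, so the genes are not independent. Coordinates are 1-based on GRCh37 (hg19). Of the 90 genes, 86 were placed by the GENCODE annotation, 3 by an exact match of their RefSeq promoter sequence and 1, the pseudogene HIST2H2BB, was not placed.

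Replication-dependent histone genes encode the H1, H2A, H2B, H3 and H4 proteins that package newly copied DNA. They are switched on in S phase, lack introns in their main transcripts, and end in a stem-loop rather than a poly(A) tail. They stand in clusters, often as divergent H2A and H2B pairs that share a promoter, and their transcription and processing take place in histone locus bodies organised by NPAT. Myc proteins bind DNA with their partner MAX, most tightly at the E-box CACGTG. HIST1 is the large cluster on chromosome 6, HIST2 and HIST3 are on chromosome 1 and HIST4H4 is on chromosome 12. On chromosome 6 the genes fell into 3 groups, from 25.727 to 26.323 Mb (34 coding genes), from 27.101 to 27.115 Mb (5 coding genes) and from 27.775 to 27.861 Mb (16 coding genes), called groups A, B and C here.

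The sequences that carry the comparison between peak and promoter are shown first. Capitals mark the searched motifs, which are the E-box CACGTG and its variants CACGCG and CATGTG, the octamer ATTTGCAT, the TATA box TATAAA, the CCAAT box CCAAT, the E2F sites TTTCGCGC and TTTGGCGC, and the H1 AC box AAACACA, on either strand. Motifs may overlap, as TATAAA does with its reverse complement. The following 250 bases end just before the start of HIST1H4I, the histone gene whose start an N-Myc peak covered.
HIST1H4I upstream (chr6:27106811-27107060, + strand): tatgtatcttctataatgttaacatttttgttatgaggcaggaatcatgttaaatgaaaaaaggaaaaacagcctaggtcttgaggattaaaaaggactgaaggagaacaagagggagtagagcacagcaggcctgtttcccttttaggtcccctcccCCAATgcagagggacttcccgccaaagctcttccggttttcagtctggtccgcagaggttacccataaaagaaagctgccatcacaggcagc

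The next pair contrasts the shared promoter of HIST1H2BK and HIST1H2AH with the stretch beyond the 3′ end of HIST1H2BK where the N-Myc peak lay. The promoter held an octamer, an E2F site and 6 CCAAT boxes but no E-box, and the stretch under the peak held 2 E-boxes and an E2F site. That stretch was chosen because it held the most copies of CACGTG, so its E-boxes follow from the choice.
HIST1H2BK/HIST1H2AH promoter (chr6:27114635-27114884, + strand): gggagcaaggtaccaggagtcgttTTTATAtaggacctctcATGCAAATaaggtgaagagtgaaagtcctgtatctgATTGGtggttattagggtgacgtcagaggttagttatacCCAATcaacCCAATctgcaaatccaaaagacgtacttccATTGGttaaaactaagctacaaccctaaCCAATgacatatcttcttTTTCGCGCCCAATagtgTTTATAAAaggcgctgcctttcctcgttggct
HIST1H2BK 3′ flank, in the peak (chr6:27113816-27114115, + strand): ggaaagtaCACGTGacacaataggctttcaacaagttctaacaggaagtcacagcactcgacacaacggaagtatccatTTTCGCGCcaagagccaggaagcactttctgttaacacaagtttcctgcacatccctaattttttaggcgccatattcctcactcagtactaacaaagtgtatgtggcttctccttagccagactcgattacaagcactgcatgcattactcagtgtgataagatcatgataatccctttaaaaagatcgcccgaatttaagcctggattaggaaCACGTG

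Another pair is shown for HIST1H2AK and HIST1H2BN, with the stretch taken at the centre of the peak. Neither the shared promoter nor these 300 bases held an E-box.
HIST1H2AK/HIST1H2BN promoter (chr6:27806154-27806322, + strand): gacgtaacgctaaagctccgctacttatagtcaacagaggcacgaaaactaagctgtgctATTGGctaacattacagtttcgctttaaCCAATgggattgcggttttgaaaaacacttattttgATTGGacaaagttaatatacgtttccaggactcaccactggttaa
HIST1H2AK 3′ flank, in the peak (chr6:27805139-27805438, + strand): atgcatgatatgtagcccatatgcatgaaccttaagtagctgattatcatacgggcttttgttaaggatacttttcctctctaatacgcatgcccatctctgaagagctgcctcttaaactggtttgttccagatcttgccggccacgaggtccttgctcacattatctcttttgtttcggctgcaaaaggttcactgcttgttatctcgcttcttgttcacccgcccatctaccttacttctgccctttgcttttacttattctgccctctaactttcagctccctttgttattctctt

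The shared promoter of HIST1H2BJ and HIST1H2AG is shown because it is close in sequence to that of HIST1H2BK and HIST1H2AH, with 203 identical bases over 253 aligned columns (80.2%), while no common peak lay in its window. By the same alignment the HIST1H2AK/HIST1H2BN promoter was 48.2% identical to the HIST1H2BK/HIST1H2AH promoter.
HIST1H2BJ/HIST1H2AG promoter (chr6:27100575-27100821, + strand): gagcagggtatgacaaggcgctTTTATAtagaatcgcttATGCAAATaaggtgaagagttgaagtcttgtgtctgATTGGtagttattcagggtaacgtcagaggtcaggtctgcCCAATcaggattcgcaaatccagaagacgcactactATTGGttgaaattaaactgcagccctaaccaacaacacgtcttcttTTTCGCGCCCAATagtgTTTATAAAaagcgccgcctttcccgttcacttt

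N-Myc was listed at 6 histone promoters and JMJD6 at none. The 6 genes were HIST1H2AH and HIST1H2AK, which encode H2A, HIST1H2BJ, HIST1H2BK and HIST1H2BN, which encode H2B, and HIST1H4I, which encodes H4. They made up 8.45% of the 71 coding histone genes (95% CI 3.16 to 17.5%), where 18.4% of 19126 autosomal coding genes had a promoter in the N-Myc list. None of the 19 pseudogenes was listed (upper limit of the interval 17.6%). The interval for the histone genes lay below the share of all coding genes, but the 6 windows merged into 4 separate stretches of DNA, so the interval is too narrow for genes that share peaks. The 71 also include HIST2 genes with near-identical copies. In the main HIST2 group 10 of 13 windows, pseudogenes included, were under 50% unique in sequence. Such genes were counted as not listed, and the share without them was not computed.

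By histone type, 2 of 17 H2A genes (11.8%, 95% CI 1.46 to 36.4%), 3 of 18 H2B genes (16.7%, 3.58 to 41.4%) and 1 of 15 H4 genes (6.67%, 0.169 to 31.9%) were listed. No H1 gene of 6 and no H3 gene of 15 was listed (upper limits of the intervals 45.9% and 21.8%). The intervals of all the types overlapped one another, so no type stood apart at this number of genes.

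All 6 listed genes lay in groups B and C of HIST1. In group B 4 of 5 coding genes were listed (80.0%, 95% CI 28.4 to 99.5%) and the exception was HIST1H2AG, which shares its promoter with the listed HIST1H2BJ. In group C 2 of 16 were listed (12.5%, 1.55 to 38.3%). In group A, the largest, 0 of 34 coding genes were listed (upper limit of the interval 10.3%), and the intervals of groups A and B did not overlap. Group B, however, is 1 short stretch with 2 common N-Myc peaks, and the HIST1H2BJ window held none. The genes are linked, so these intervals are too narrow to set the groups apart. HIST2 had 0 of 12 listed, HIST3 0 of 3, and HIST4H4 was not listed.

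**Figure D1:**
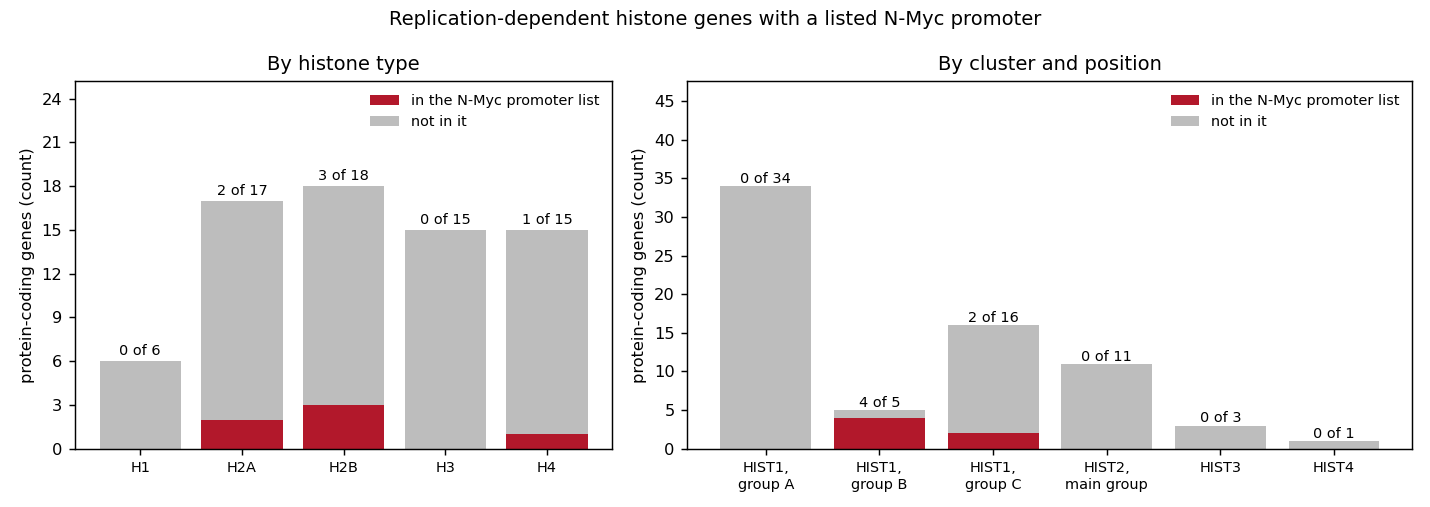
Number of protein-coding replication-dependent histone genes (y axis, count) in the N-Myc promoter list (red) or not in it (grey), by histone type on the left and by cluster and position on the right; HIST2 is shown for the 11 coding genes of its main group. The listed genes are H2A, H2B and H4 genes, and they sit in groups B (4 of 5) and C (2 of 16) of HIST1.

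The common peaks at these promoters lay mostly away from the start sites. HIST1H4I was the exception. Its peak, chr6:27106842-27108054, was 1213 bp wide, and 126 of the 10172 common N-Myc peaks were at least as wide. It ran from 245 bp before to 967 bp after the listed start and covered all 397 bp of the annotated gene, a single exon. The annotation also placed the start of a gene named only by its identifier (ENSG00000290032) within 1 kb of this peak.

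HIST1H2BK and HIST1H2AH shared the peak chr6:27113623-27114200, 578 bp wide. Along HIST1H2BK it began 437 bp after the listed start and ran to 1014 bp after it, covering the last 61 bp of the 495-bp gene and then the 3′ flank. Seen from HIST1H2AH it lay 660 to 1237 bp before the listed start, and 341 bp of it (59.0%) fell in that promoter window. The 250 bases between the 2 start sites, printed above as their shared promoter, were not covered by it.

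HIST1H2AK and HIST1H2BN likewise shared 1 peak, chr6:27805073-27805503, 431 bp wide, against a median of 418 bp over all common N-Myc peaks. It lay wholly beyond the 3′ end of HIST1H2AK, 155 bp away, and 614 to 1044 bp after that gene's listed start. It reached the HIST1H2BN window by 65 bp, or 15.1% of its width. The listed start of HIST1H2BN was 116 bp from the annotated one, and for the other 5 listed genes the difference was 1 to 36 bp.

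The HIST1H2BJ window, chr6:27099575-27101575, held no common peak, and the nearest one was the HIST1H4I peak, 5267 bp from the window's edge. Such windows made up 131 of the 5114 in the N-Myc promoter list (2.56%). Why the window is listed was not tested.

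**Figure D2:**
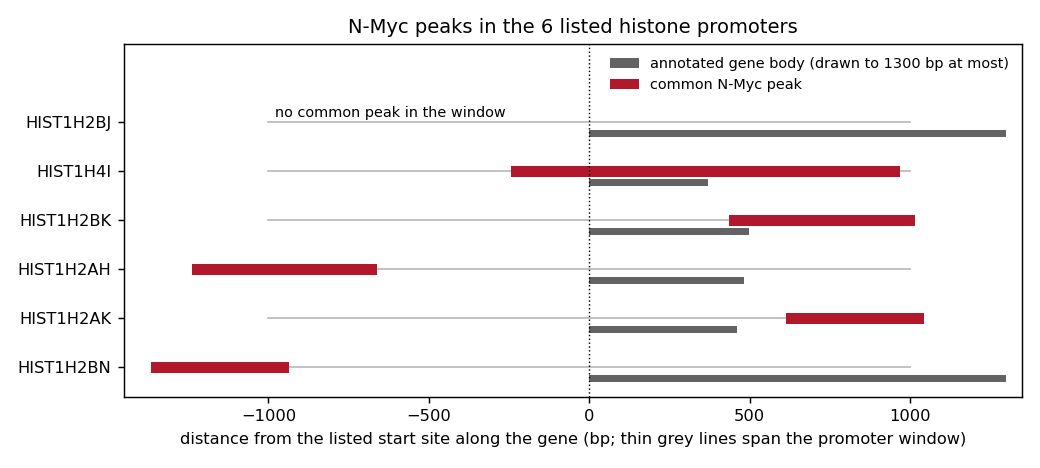
Position of the common N-Myc peak (red) relative to the listed start site (0, dotted line; x axis in bp, counted along the direction of the gene) for each of the 6 listed histone promoters; thin grey lines span the promoter windows and dark bars the annotated gene bodies, drawn to 1300 bp at most. The HIST1H4I peak covers the start, 4 windows are reached by a peak that begins 437 bp or more from the start, and the HIST1H2BJ window holds none.

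Counted from annotated start sites instead of the list, 5 of 71 coding histone genes had a common N-Myc peak within 1 kb (7.04%, 95% CI 2.33 to 15.7%), where 17.0% of 19222 autosomal coding genes did. These were HIST1H4I, HIST1H2BK, HIST1H2AH, HIST1H2AK and HIST1H2BN. A peak covered the start of 1 of 71 (1.41%, 0.0357 to 7.60%), against 9.39% of autosomal coding genes. Among the other coding genes with a peak within 1 kb, the peak covered the start in 1804 of 3263 (55.3%, 53.6 to 57.0%).

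The sixth annotated start with a peak within 1 kb was that of a pseudogene, HIST1H3PS1, at the far end of group A. Its peak, chr6:26322802-26323340, was 539 bp wide and lay 282 bp from the start. It held 1 CACGTG and 1 match to the letters GTTCGANNC, the B box of tRNA genes, a motif searched only after this peak had been seen. In RefSeq gene order the gene next to this pseudogene is the arginine tRNA gene TRR-TCG2-1. The B box letters were present in 2.21% of all common N-Myc peaks and in none of the 71 coding histone promoters. They were not particular to this peak, since the HIST1 region's peaks in the listed promoters of HMGN4 and ZNF391 also held them. The central 300 bases of this peak are shown because they hold the E-box of the only common N-Myc peak of group A.
HIST1H3PS1 flank, in the peak (chr6:26322922-26323221, + strand): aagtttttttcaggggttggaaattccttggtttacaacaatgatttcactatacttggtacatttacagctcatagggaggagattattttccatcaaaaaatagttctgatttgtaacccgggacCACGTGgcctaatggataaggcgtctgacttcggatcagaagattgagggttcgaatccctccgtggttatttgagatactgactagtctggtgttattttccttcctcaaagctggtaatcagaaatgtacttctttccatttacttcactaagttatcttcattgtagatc

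Distance to the nearest peak also differed between the 3 HIST1 groups. In group A the nearest common N-Myc peak lay at a median of 157.0 kb from the 34 coding starts, and the closest, HIST1H4H, was 36.9 kb away. In group B the median was 0.685 kb and the farthest start, HIST1H2BJ, was 6.27 kb away. In group C it was 15.9 kb, with HIST1H4J at 2.18 kb and HIST1H4K, also an H4 gene, at 5035 bp. The 11 coding genes of the main HIST2 group lay 11.4 to 87.0 kb away, those of HIST3 42.8 to 75.5 kb and HIST4H4 498.0 kb. Over all 71 coding histone genes the median was 70960 bp, against 54.6 kb over 19154 other autosomal coding genes.

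Within 10 kb of a common N-Myc peak lay 9 of 71 coding histone starts (12.7%) and 25.5% of the other coding genes, whereas within 100 kb the shares were 62.0% and 63.4%. The 62.0% pools unlike groups. In group A 9 of 34 coding starts (26.5%) lay within 100 kb of a common N-Myc peak, and in groups B and C all did. The HIST1 region was not without peaks. Across its 2.14 Mb there were 15 common N-Myc peaks, 7.02 per Mb, where the autosomes had 3.48 per Mb. Of the 15, 3 lay in listed histone promoters and 5 in listed promoters of other genes, which were HCG11, HMGN4, ABT1, ZNF391 and ZNF184. Only 1 of the 15 lay within group A, the one beside HIST1H3PS1.

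**Figure D3:**
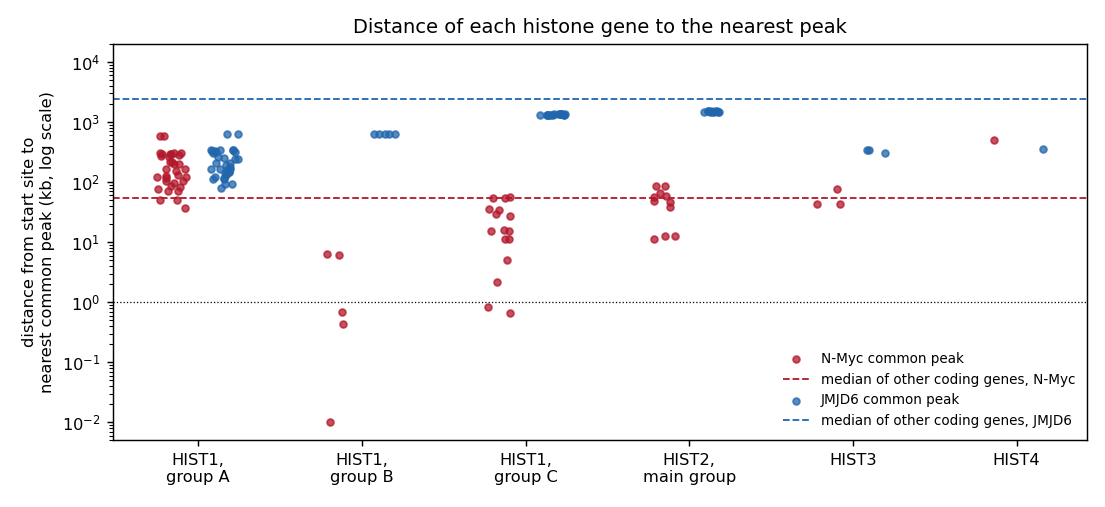
Distance from the start site of each protein-coding histone gene to the nearest common peak (y axis, kb, log scale; the peak over HIST1H4I, at distance 0, is drawn as the lowest point) for N-Myc (red) and JMJD6 (blue), by cluster and position; dashed lines are the medians of the other autosomal coding genes and the dotted line is 1 kb. Only starts of HIST1 groups B and C fall under 1 kb of an N-Myc peak, and the start nearest to a JMJD6 peak lies 78.9 kb from it.

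JMJD6 was found at no replication-dependent histone gene. None of the 71 coding genes was in the JMJD6 promoter list (upper limit of the interval 5.06%), and 0.648% of autosomal coding genes were in it. With so few JMJD6 promoters in all, a count of 0 is not distinguishable from that background. None was in the list of promoters bound by both proteins either, where the share of autosomal coding genes was 0.314%, and no enhancer or super-enhancer of the JMJD6 list was assigned to a histone gene. The nearest JMJD6 peak to a coding histone start lay 78.9 kb from HIST1H4H, and the median over the 71 genes was 353.0 kb, against 2390 kb over the other autosomal coding genes.

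The HIST1 region did hold 7 JMJD6 common peaks, all between groups A and B at butyrophilin genes, which encode immunoglobulin-family membrane proteins. Of these, 6 lay in the listed JMJD6 promoters of BTN3A2, BTN2A2, BTN3A1, BTN2A3P, BTN3A3 and BTN2A1. None of the 7 overlapped a peak shared with N-Myc.

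Enhancer assignment widened the picture for N-Myc. The N-Myc typical enhancer list held 3 regions assigned to histone genes, and the super-enhancer list 1. The region chr6:27098818-27115598, 16.8 kb long and assigned to HIST1H4I (132 bp from its centre) and HIST1H2BK (7411 bp), contained all 5 starts of HIST1 group B and both of that group's common N-Myc peaks. So the peaks counted above at promoters also lay inside a typical enhancer, and the list entries are not separate evidence.

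The super-enhancer chr6:27774673-27807490 was 32.8 kb long, the 61st longest of 162 in the N-Myc list. It was assigned to HIST1H4J (803 bp upstream, as listed) and HIST1H2BM (8259 bp downstream). It contained the starts of 9 coding genes, which were HIST1H2BL, HIST1H2AI, HIST1H3H, HIST1H2AJ, HIST1H2BM, HIST1H4J, HIST1H4K, HIST1H2AK and HIST1H2BN, and of the pseudogene HIST1H4PS1. These 9 were 12.7% of the coding histone genes (95% CI 5.96 to 22.7%), where 0.718% of autosomal coding genes had their start inside an N-Myc super-enhancer, but all 9 came from this 1 region. Because such regions were joined across gaps, a start inside this region is not shown to carry H3K27ac itself. It held 2 common N-Myc peaks, the one beyond HIST1H2AK and chr6:27794049-27794303, 255 bp wide and 2.18 kb after the start of HIST1H4J. Only 40.0% of the 75-base words in the latter occurred once in the reference genome, so reads there could have come from another copy. That part was not tested.

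On chromosome 1, the region chr1:149855779-149872162 was assigned to HIST2H2AB and to SV2A, a synaptic vesicle gene, and contained the starts of HIST2H2BE, HIST2H2AC and HIST2H2AB. Its 1 common N-Myc peak was at least 11.4 kb from these starts. The region chr1:149815035-149821889 was assigned to HIST2H2AA4 and HIST2H2AA3 and held no common N-Myc peak, as did 144 of 4649 N-Myc typical enhancers (3.10%). Over both chromosomes, 8 of 71 coding histone starts lay inside an N-Myc typical enhancer (11.3%, 4.99 to 21.0%), against 15.5% of autosomal coding genes.

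The E-box was looked for under the peaks and at the start sites. Of the 3 common N-Myc peaks in listed histone promoters, 1 held CACGTG, the peak beyond HIST1H2BK, which held 2 copies. Of the common N-Myc peaks in any listed promoter 36.9% held at least 1 copy and 6.59% held 2 or more. Over all common N-Myc peaks 33.4% and 4.71% did. For at least 1 copy, 1 of 3 is near these shares. With only 3 peaks, 1 with 2 copies is too few to set against the shares with 2 or more. The HIST1H4I peak, although the widest of the 3, held none of the 3 E-box spellings, and neither did the peak beyond HIST1H2AK. At least 1 of the 3 spellings was held by 67.3% of peaks in listed promoters and 72.9% of all common peaks.

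In the 300 bases from 250 before to 50 after the start, none of the 71 coding histone promoters held CACGTG (upper limit of the interval 5.06%), against 8.19% of 19222 autosomal coding promoters. CATGTG was found in 0 of 71 as well, against 9.70%, and CACGCG in 1, HIST1H3E, against 13.2%. Within 1 kb on each side, 8 of 71 held CACGTG (11.3%, 4.99 to 21.0%), against 28.7%. Of these 8, HIST1H2BK and HIST1H2AH were listed for N-Myc, and HIST1H3C, HIST1H4D, HIST1H2AJ, HIST1H2BM, HIST1H4J and HIST4H4 were not. An absent match says only that these letters were not in the window.

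The motifs that the histone promoters did hold differed by type. The octamer, the site of the POU factor OCT1, was found in 12 of 17 H2A and 13 of 18 H2B promoters (70.6% and 72.2%). Of all coding promoters 1.65% held it, and it was in 1 of 15 H3 promoters and in no H1 or H4 promoter. The H3 gene was HIST1H3J, whose annotated start lies close to that of HIST1H2AM, so its window overlaps that H2A promoter. Divergent H2A and H2B genes share a promoter, so 1 octamer was often counted for both. The AC box was in all 6 H1 promoters and in 3 of the other 65, against 5.07%. The TATA box was in 47 of 71 (66.2%, 54.0 to 77.0%), against 2105 of 19222 promoters in all. The CCAAT box was in 60 of 71 (84.5%, 74.0 to 92.0%), against 35.5%, with the H4 genes lowest at 6 of 15.

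**Figure D4:**
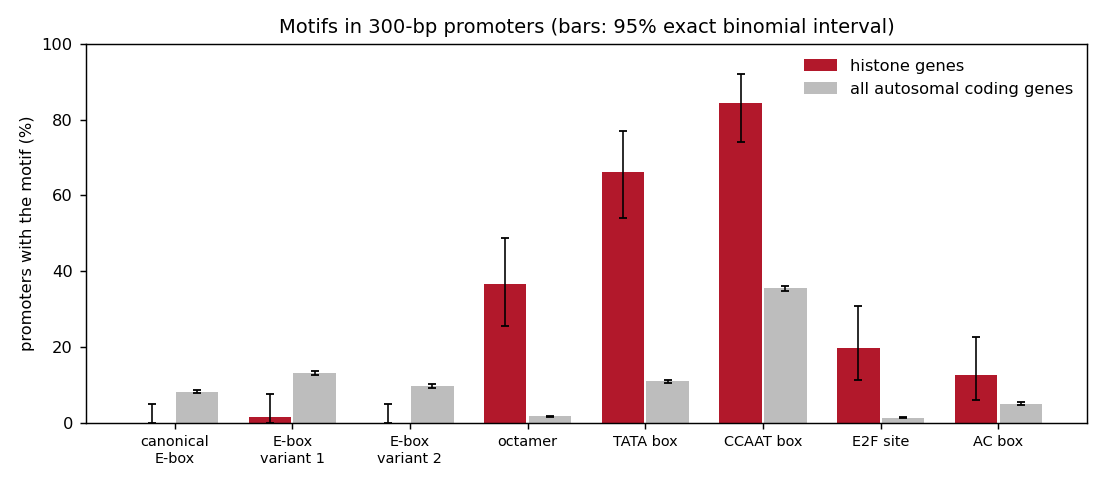
Share of 300-bp promoters holding each motif (y axis, %), for the 71 coding histone genes (red) and all autosomal coding genes (grey), with 95% exact binomial intervals; E-box variants 1 and 2 are CACGCG and CATGTG. The E-box spellings were rarer in histone promoters than in all promoters, and the octamer, TATA, CCAAT and E2F motifs more frequent.

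The E2F site differed between the HIST1 groups. It was found in 14 of 71 coding histone promoters (19.7%, 11.2 to 30.9%), against 1.36% of all coding promoters. In HIST1 group A 1 of 34 held it, HIST1H3F, while in group B 4 of 5 did and in group C 8 of 16 (95% CI 24.7 to 75.3%). Groups B and C thus held both the listed N-Myc promoters and most of the E2F sites, but the listed genes did not all carry the site. Of the 6 genes listed for N-Myc, 3 held the site (HIST1H2BJ, HIST1H2BK and HIST1H2AH), and HIST1H4I, HIST1H2AK and HIST1H2BN did not. Of the 65 not listed, 11 held it (16.9%, 8.76 to 28.3%), an interval that overlaps that of the listed genes (11.8 to 88.2%). Genes of a divergent pair share a promoter, so 1 site was often counted for both genes. In group B the 4 genes were HIST1H2BJ with HIST1H2AG and HIST1H2BK with HIST1H2AH. The counts therefore hold fewer separate sites than genes, and the intervals are too narrow.

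Near-identical copies limit what the lists can show for HIST2. The share of 75-base words that occur once in the reference was computed for each promoter window of 1 kb on each side. In HIST1 group A all 43 windows, pseudogenes included, were at least 90% unique, with a lowest value of 96.4%. The 6 listed promoters had at least 90.8% unique words. In the main HIST2 group 10 of 13 windows were under 50%, with a median of 26.4%, and HIST2H4A, HIST2H4B, HIST2H3A and HIST2H3C were at 0%. In these 4 windows no read of 75 bases could be placed uniquely, and whether N-Myc bound there was not detectable in this way. Of the 89 placed windows, 69 were at least 90% unique, against 969 of 996 windows of other coding genes of chromosome 6.

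**Figure D5:**
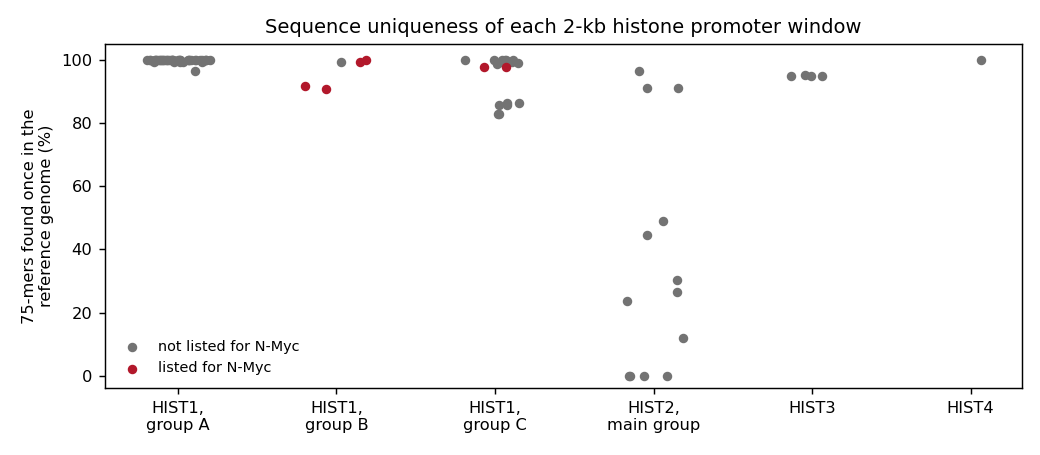
Share of 75-base words that occur once in the reference genome (y axis, %) in each histone promoter window, by cluster and position; red points are genes listed for N-Myc. The windows of HIST1 group A lie at 96.4% or above and most of the HIST2 windows under 50%.

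Genes that make, process and carry histones were counted beside the histone genes. Of 18 genes for histone mRNA synthesis and 3′ processing, 7 had a promoter in the N-Myc list (38.9%, 95% CI 17.3 to 64.3%). Those with the widest peaks were E2F1, a cell cycle transcription factor (988 bp), HINFP, which activates H4 genes (967 bp), POU2F1, which encodes the octamer-binding OCT1 (677 bp), NPAT (615 bp), LSM10, a part of the U7 particle that cuts histone mRNA (331 bp), and ERI1, an exonuclease that acts on histone mRNA (261 bp). The remaining listed window held no common peak. SLBP, which binds the stem-loop, was not listed, and neither were CASP8AP2, LSM11, ZNF473 and the cyclin E partner CDK2.

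Of 13 replication-independent or variant histone genes, 4 were listed for N-Myc (30.8%, 9.09 to 61.4%). They were H2AFZ, which encodes H2A.Z (841 bp), H3F3A and H3F3B, which both encode H3.3 (401 and 286 bp), and H1FX, a linker histone gene (289 bp). Of 16 chaperones, 4 were listed (95% CI 7.27 to 52.4%), which were DAXX, an H3.3 chaperone (1153 bp), SUPT16H, a FACT subunit (803 bp), NAP1L4 (646 bp) and ASF1A (245 bp). Over the 3 lists 15 of 47 genes were listed (31.9%, 19.1 to 47.1%). That interval lay above the 17.5% upper limit of the replication-dependent genes and just above the 18.4% of autosomal coding genes. Not all of the 47 are autosomal coding genes. Among those that are, 15 of 43 were listed (34.9%, 21.0 to 50.9%). The interval of each list alone spanned 18.4%, and the lists were chosen by function with earlier results of these data known.

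JMJD6 was listed at 1 of these 47 promoters, that of NASP, a chaperone of H3, H4 and H1. Of autosomal coding genes 0.648% were in the JMJD6 promoter list, and a count of 1 is too small to set against that share. Its JMJD6 peak, chr1:46048952-46049993, was 1042 bp wide, and NASP was not in the N-Myc promoter list. NASP and H3F3B were each assigned 1 JMJD6 typical enhancer. That of H3F3B was chr17:73774727-73782663, with a listed distance of -2835 bp. The share of all genes assigned a JMJD6 enhancer was not computed.

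The label of the cells was checked against marker genes. Among the adrenergic neuroblastoma markers, GATA2 and MYCN had a listed N-Myc promoter, and HAND2, GATA3 and MYCN were assigned a super-enhancer of the N-Myc list. Of 5 markers of other neural crest, stromal or blood cells, none had a listed promoter or a super-enhancer and 2, COL1A1 and PTPRC, were assigned a typical enhancer.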

How the data were processed

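CHP-134 cells were profiled by ChIP-seq with 3 replicates for each of 2 antibodies. Per the labels and the study's methods, the authors aligned reads to hg19 with BWA, used SAMtools and bedtools, called peaks in each replicate over input with MACS2 (2.1.1.20160309) and kept those common to the 3 replicates. The 12 deposited lists hold positions in bp, with gene symbols or nearest genes, pooled over replicates, and no list has a column for a sample.

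Histone genes were matched by symbol or older symbol in RefSeq (GRCh38 table, used for names, gene order and promoter sequence) and placed with GENCODE v44 lifted to GRCh37. Chromosome 6 genes were grouped where neighbours lay over 300 kb apart. Overlap needed 1 bp. Motifs were read from the GRCh37 reference on both strands, and uniqueness from 75-base words. Sequences were aligned globally. Intervals are exact 95% binomial. The procedures were tested on simulated data. The rule named every listed member, and of the supply genes up to 6 per list with the widest N-Myc peak. Some results on cell type markers are not reported here. The members, gene lists and motifs were chosen with earlier results of these data known. Python 3.11.15, pandas 2.3.3, SciPy 1.17.1, pysam 0.24.0, numba 0.67.0 and matplotlib 3.10.9 were used.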

Additional observations from a re-analysis of the deposited data

How the results depend on the processing

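The count of 6 histone promoters listed for N-Myc fell to 3 when a common peak had to lie within 500 bp of an annotated start (HIST1H4I, HIST1H2BK and the pseudogene HIST1H3PS1) and to 1 within 250 bp (HIST1H4I), since the other peaks lie farther from the starts. Under the other 7 alternatives it was 4 to 6. The count of JMJD6 promoters was 0 within 1 kb, within 5 kb and with merged windows. The count of coding histone promoters with CACGTG rose from 0 in 300 bases to 8 within 1 kb on each side, an alternative chosen after seeing the data. Of 18 alternatives over all results, 15 stayed within 1.5 times the reported count. That tally does not measure robustness, because some alternatives could not change the count. All 6 listed genes were coding HIST1 genes, so limiting the count to either kind left 6. Merging JMJD6 windows when none was listed left 0. The tRNA B box, a different motif, was scored against the E-box count of 0.

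No paired analysis was possible because the lists are pooled over replicates and have no column for a sample, and leaving out each replicate in turn was not run for the same reason. Peak width only imitates a stricter threshold. With 71 coding genes in shared peaks, differences between histone types in N-Myc listing were not detectable at this size.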
